A study of Mus musculus with 367 samples.

Results

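Acta2, Actg2, Myl9, Myh11, Tpm1, Tpm2, Cnn1, Cnn2, Tagln and Des are 10 of the 50600 genes in the tables of single wound cells deposited with this study. They were taken by name, as genes of the smooth muscle contractile apparatus and its cytoskeleton, and all 10 were present in the tables. Each was followed by capture, by day and by cell kind in FPKM, a unit that divides the fragments of a gene by its transcript length and by the depth of the cell, so that levels can be compared between genes.

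Smooth muscle shortens when myosin motors pull on filaments of smooth muscle actin, while tropomyosins and calponins lie along those filaments and control how the motors engage. Vascular smooth muscle cells and pericytes, together called mural cells, carry this apparatus in the walls of vessels. In healing skin, fibroblasts can switch on part of it, above all alpha smooth muscle actin, and are then called myofibroblasts, the cells that draw the wound closed. Serum response factor and its myocardin family partners switch these genes on through a short promoter element, the CArG box.

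All cells came from Sm22-Cre;tdTomato mice of mixed background, aged 3 to 8 weeks by the labels (the methods give a narrower range), with square excisional wounds of 1.5 cm on the back, and were collected on post-wounding day (PWD) 12, 15 or 21. Cre in this line is driven by the Sm22 promoter, that is the promoter of Tagln, and tdTomato stays on in every cell in which it was once active and in its progeny. Sorting for high tdTomato therefore chose the cells through one of the genes described here, and tdTomato does not report whether Tagln was still transcribed. Tissue of 2 to 3 wounds was collected per time point, and the methods of the study describe it as pooled. There were no unwounded or tdTomato-negative cells, and all groups carry the same alleles. The labels set the groups apart by day, and the captures and the depth of the cells differ with day.

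The data hold 367 cells from 3 captures on PWD12, 2 on PWD15 and 2 on PWD21, where a capture is a separate load of a microfluidic chip. Limits on depth, gene number and mitochondrial share left 293 cells, 27 to 73 per capture, with medians of 965441 to 2350974 estimated fragments per cell over the captures. No 2 cells held the same values. Captures served as replicates, and since nothing states that they came from different mice, p values measure the spread between captures, which may be technical. Each capture holds cells of 1 day, so that differences between days and between captures cannot be told apart beyond that spread.

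Cells were sorted into kinds by genes outside the list. Matrix cells had Col1a1 of at least 1000 FPKM with Rgs5 under 100 and Tyrobp under 50 (198 cells), mural cells had Rgs5 of at least 500 with Tyrobp under 50 (57 cells), and myeloid cells had Tyrobp of at least 500 (26 cells), while 12 kept cells met none of these rules. Mural is used here as a name for the cells of the Rgs5 rule. The paper counts PWD12 wound cells marked by RGS5 as fibroblasts and places most of them outside vessels. Apart from Rgs5, which the rule used, the summed level of 7 mural markers, among them Notch3, Kcnj8 and Cox4i2, was 656 to 1458 FPKM in mural cells and 24.5 to 47.4 in matrix cells over the captures. Apart from Col1a1, 5 matrix markers, with Col3a1 the highest, summed to 16212 to 31968 FPKM in matrix cells and still to 3505 to 12599 in mural cells, and 19 mural cells themselves reached 1000 FPKM of Col1a1. In myeloid cells these 5 markers summed to 67.9 to 10590 FPKM over the captures. Markers of skeletal muscle, which would bring Des and tropomyosins with them, summed to at most 2.43 FPKM in matrix cells and 0.241 in mural cells.

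The 7 members with an entry among the RefSeq promoters of GRCm38.p6 were searched for the CArG box, 10 bases made of CC, 6 bases of A or T, and GG. The box reads the same on both strands as a pattern. It was found in the window from 250 bases before to 50 bases after the start of 2 of the 7 members, Cnn2 and Myl9, and in 535 of 32851 promoters (1.63%). With at most 1 departure in the middle 6 bases, it was found in 3 of 7 members, which adds Acta2, and in 9.98% of all promoters. Promoters of Tagln, Actg2 and Myh11 were not analysed here. The 250 bases before the start of the 3 members with a box follow, 5′ to 3′ on the strand of the gene with the boxes in capitals, because these members are actin, myosin and calponin genes whose levels are compared next. They lie at chr19:34255374-34255623 on the minus strand for Acta2, chr2:156775214-156775463 on the plus strand for Myl9 and chr10:79988350-79988599 on the plus strand for Cnn2. The starts used here are those of RefSeq. By the gene positions given below, part of each stretch lies within the gene, including the 2 boxes of Acta2.
Acta2: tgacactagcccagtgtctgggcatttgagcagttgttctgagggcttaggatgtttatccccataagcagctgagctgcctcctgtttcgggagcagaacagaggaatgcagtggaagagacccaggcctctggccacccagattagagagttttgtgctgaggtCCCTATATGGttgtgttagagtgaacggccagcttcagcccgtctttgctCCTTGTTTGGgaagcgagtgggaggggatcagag
Myl9: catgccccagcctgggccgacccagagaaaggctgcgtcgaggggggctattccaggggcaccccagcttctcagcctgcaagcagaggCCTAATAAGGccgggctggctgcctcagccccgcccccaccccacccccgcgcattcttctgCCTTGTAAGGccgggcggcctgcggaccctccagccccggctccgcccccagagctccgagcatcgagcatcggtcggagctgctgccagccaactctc
Cnn2: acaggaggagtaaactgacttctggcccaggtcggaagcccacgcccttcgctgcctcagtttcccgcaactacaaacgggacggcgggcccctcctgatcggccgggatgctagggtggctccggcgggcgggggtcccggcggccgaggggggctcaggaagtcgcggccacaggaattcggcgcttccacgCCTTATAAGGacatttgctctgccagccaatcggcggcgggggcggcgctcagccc
The 2 boxes of Acta2, CCCTATATGG and CCTTGTTTGG, start 84 and 34 bases before the start, and each departs from the pattern at 1 base. Myl9 holds the full box CCTAATAAGG 161 bases before its start and a departing CCTTGTAAGG 99 bases before it, and Cnn2 holds the full box CCTTATAAGG 56 bases before its start. A match is a description of these letters and not a measured binding site.

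Acta2 (ENSMUSG00000035783, GRCm38 chromosome 19, 34241090 to 34255590, minus strand) encodes alpha smooth muscle actin, the actin by which myofibroblasts are recognised. In matrix cells its mean level was 378, 573 and 131 FPKM in the PWD12 captures 1, 2 and 3, 29.6 and 12.9 FPKM in the PWD15 captures, and 21.5 and 42.2 FPKM in the PWD21 captures. The lowest PWD12 capture thus lay above the highest later capture. In mural cells the mean was 851, 1132 and 899.6 FPKM in the PWD12 captures, 2023 FPKM in PWD15 capture 1 and 126 FPKM in PWD21 capture 1, the captures with at least 3 such cells. Mural cells lay above matrix cells in each of these 5 captures. The PWD21 value rests on 8 kept cells, and without the limits on cells the 13 PWD21 mural cells averaged 394 FPKM of Acta2, 390.01 of Myl9, 549 of Tagln, 316 of Tpm1, 69.9 of Actg2 and 40.3 of Des, each over 1.5 times the level in kept cells.
The lower matrix means of the later days went with fewer cells holding the gene. Acta2 reached 10 FPKM in 43 of 74 matrix cells on PWD12 (58.1%, exact 95% binomial interval 46.1 to 69.5), in 8 of 72 on PWD15 (11.1%, 4.92 to 20.7) and in 10 of 52 on PWD21 (19.2%, 9.63 to 32.5). The median matrix cell held 28.1, 94.3 and 20.3 FPKM in the PWD12 captures and 0 FPKM in every later capture. On PWD15 the 8 highest cells held 99.5% of all Acta2 in matrix cells, and 1 cell at 1051 FPKM held 59.5%, without which the mean over cells was 10.1 FPKM. On PWD12 the 8 highest cells held 51.01%.
In mural cells the share with 10 FPKM or more was 96.7%, 89.5% and 87.5% on the 3 days, so that most kept mural cells of each day held Acta2, and on PWD21 the share was 61.5% without the limits on cells. For comparison, 2 of 26 myeloid cells were at this limit (7.69%, 0.946 to 25.1), 1 of them a cell high in the whole list that is described with the myeloid cells, at a median of 2101619 fragments per cell against 1458426 in matrix cells. Depth moved with day, with a median of 1636374 fragments per matrix cell on PWD12, 977588 on PWD15 and 2247554 on PWD21. PWD21 matrix cells were the deepest and had low Acta2, and the part of depth in the PWD15 value was not tested. Intervals and limits here cover counting error only.

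Actg2 (ENSMUSG00000059430, chromosome 6, 83512905 to 83536265, minus strand), the gamma actin of visceral smooth muscle, was expressed by fewer cells. Its matrix mean was 45.98, 87.6 and 11.7 FPKM in the PWD12 captures, 12.8 and 6.08 in the PWD15 captures, and 0.0894 and 0.00794 in the PWD21 captures. It reached 10 FPKM in 19 of 74, 5 of 72 and 0 of 52 matrix cells, where 0 of 52 allows a share of up to 5.77%. PWD21 was thus the day with next to no Actg2 in matrix cells. The mural mean was 146, 317 and 159 FPKM in the PWD12 captures, 143 in PWD15 capture 1 and 9.08 in PWD21 capture 1. In mural cells, too, the PWD21 capture was below the others, and the single PWD21 mural cell above 10 FPKM held all of the Actg2 of its group. Acta2 and Actg2 share no run of 50 bases, so reads of that length can be told apart between these 2 genes. Of the 1986 such runs of Acta2, 7 (0.352%) also occur in Actg1.

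Myl9 (ENSMUSG00000067818, chromosome 2, 156775420 to 156781658, plus strand) encodes the regulatory light chain of smooth muscle myosin, whose phosphorylation starts contraction. Its matrix mean was 293, 323 and 169 FPKM in the PWD12 captures, 125 and 179 in the PWD15 captures, and 61.4 and 89.8 in the PWD21 captures. PWD12 and PWD15 overlapped and PWD21 lay below both. In mural cells it was 673, 705 and 1155 FPKM in the PWD12 captures, 1232 in PWD15 capture 1 and 129.99 in PWD21 capture 1. Matrix cells with at least 10 FPKM made up 72.97%, 54.2% and 42.3% on the 3 days.
Myh11 (ENSMUSG00000018830, chromosome 16, 14194535 to 14291372, minus strand), the smooth muscle myosin heavy chain and a mark of mature smooth muscle, showed another pattern than the light chain. In mural cells its mean was 4.90, 2.36 and 31.9 FPKM in the PWD12 captures, 44.5 in PWD15 capture 1 and 19.7 in PWD21 capture 1, with a value above 0 in 44 of 57 cells. Only 1 of 198 matrix cells reached 10 FPKM (0.505%, 0.0128 to 2.78). Traces above 0 in matrix cells were uneven over captures, with 25 of 50 cells in PWD15 capture 1 and 5 of 17 in PWD12 capture 3 against 0 to 2 cells in each of the others, and their source was not tested. Of the 6500 runs of 50 bases in the longest Myh11 transcript, 26 (0.4%) also occur in Myh9.

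Tpm1 (ENSMUSG00000032366, chromosome 9, 67022590 to 67049406, minus strand) and Tpm2 (ENSMUSG00000028464, chromosome 4, 43514711 to 43523765, minus strand) encode tropomyosins, which are also made in non-muscle cells. The Tpm1 matrix mean was 349, 477 and 254 FPKM in the PWD12 captures, 98.6 and 128 in the PWD15 captures, and 67.7 and 77.1 in the PWD21 captures. The Tpm2 matrix mean was 194, 227 and 209 FPKM, then 139 and 139.6, then 60.5 and 151. For both genes all PWD12 captures lay above all later ones, by a wide margin for Tpm1 and a narrow one for Tpm2.
In mural cells Tpm1 was at 397, 596 and 370.2 FPKM in the PWD12 captures, 457 in PWD15 capture 1 and 157 in PWD21 capture 1. Tpm2 was at 167, 182 and 469 FPKM in the PWD12 captures, 295 in PWD15 capture 1 and 46.04 in PWD21 capture 1. Tpm1 was above its matrix level in 5 of 5 captures, and Tpm2 in 2 of 5. Tpm2 was thus the broadly expressed member without a side, and Tpm1 was the most widespread member in matrix cells on PWD12, with a value above 0 in 74 of 74 cells.

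Cnn1 (ENSMUSG00000001349, chromosome 9, 22099216 to 22109630, plus strand) encodes the calponin of differentiated smooth muscle, and Cnn2 (ENSMUSG00000004665, chromosome 10, 79988584 to 79996062, plus strand) the calponin that many non-muscle cells make. The paralogs had opposite breadth. Cnn1 reached 10 FPKM in 6 of 74 matrix cells on PWD12 and was listed at 0 in all 72 and 52 matrix cells of PWD15 and PWD21, which allow shares of up to 4.17% and 5.77%. Its mean was 13.2, 9.43 and 2.54 FPKM in the matrix cells of the PWD12 captures. In mural cells 3 of 30, 1 of 19 and 0 of 8 cells reached 10 FPKM, so that Cnn1 was rare in both kinds.
Cnn2 reached 10 FPKM in 87.8%, 68.1% and 75% of matrix cells on the 3 days. Its matrix mean was 264, 243 and 189 FPKM in the PWD12 captures, 127 and 196 in the PWD15 captures, and 91.3 and 223 in the PWD21 captures, and the days overlapped. Its mural mean was 377, 408 and 599.6 FPKM in the PWD12 captures, 311 in PWD15 capture 1 and 154 in PWD21 capture 1. Of the 10 members Cnn2 also had the largest number of myeloid cells above 0, with 15 of 26.

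Tagln (ENSMUSG00000032085, chromosome 9, 45929619 to 45936058, minus strand) encodes transgelin, an actin-binding protein made early in smooth muscle. Although its promoter drove the Cre that chose the cells, Tagln RNA was above 0 in 128 of 198 matrix cells, 50 of 57 mural cells and 3 of 26 myeloid cells. Its matrix mean was 388, 345 and 258 FPKM in the PWD12 captures, 196 and 162 in the PWD15 captures, and 85.6 and 193 in the PWD21 captures. The PWD12 captures were above the later ones, and lay closer to them than those of Acta2 did. The mural mean was 519, 948 and 1256 FPKM in the PWD12 captures, 1051 in PWD15 capture 1 and 316 in PWD21 capture 1. Of the 50-base runs in its longest transcript 48.3% also occur on the opposite strand in other gene models, mostly an antisense model, and since the counting command of the study sets no strand option, reads of both strands cannot be told apart there.
Des (ENSMUSG00000026208, chromosome 1, 75360329 to 75368579, plus strand) encodes desmin, the intermediate filament of muscle cells and of many pericytes. Its mural mean was 2.03, 109 and 59.2 FPKM in the PWD12 captures, 121 in PWD15 capture 1 and 9.46 in PWD21 capture 1. Desmin RNA was above 0 in 41 of 57 mural cells and 9 of 198 matrix cells, and only 2 matrix cells, both of PWD12, reached 10 FPKM. Of the other matrix traces, 7 were in the 18 matrix cells of PWD21 capture 1, at no more than 2.01 FPKM. At 10 FPKM or more Des was thus seen in 24 of 57 mural and 2 of 198 matrix cells, and Myh11 in 19 of 57 and 1 of 198.

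**Figure D1:**
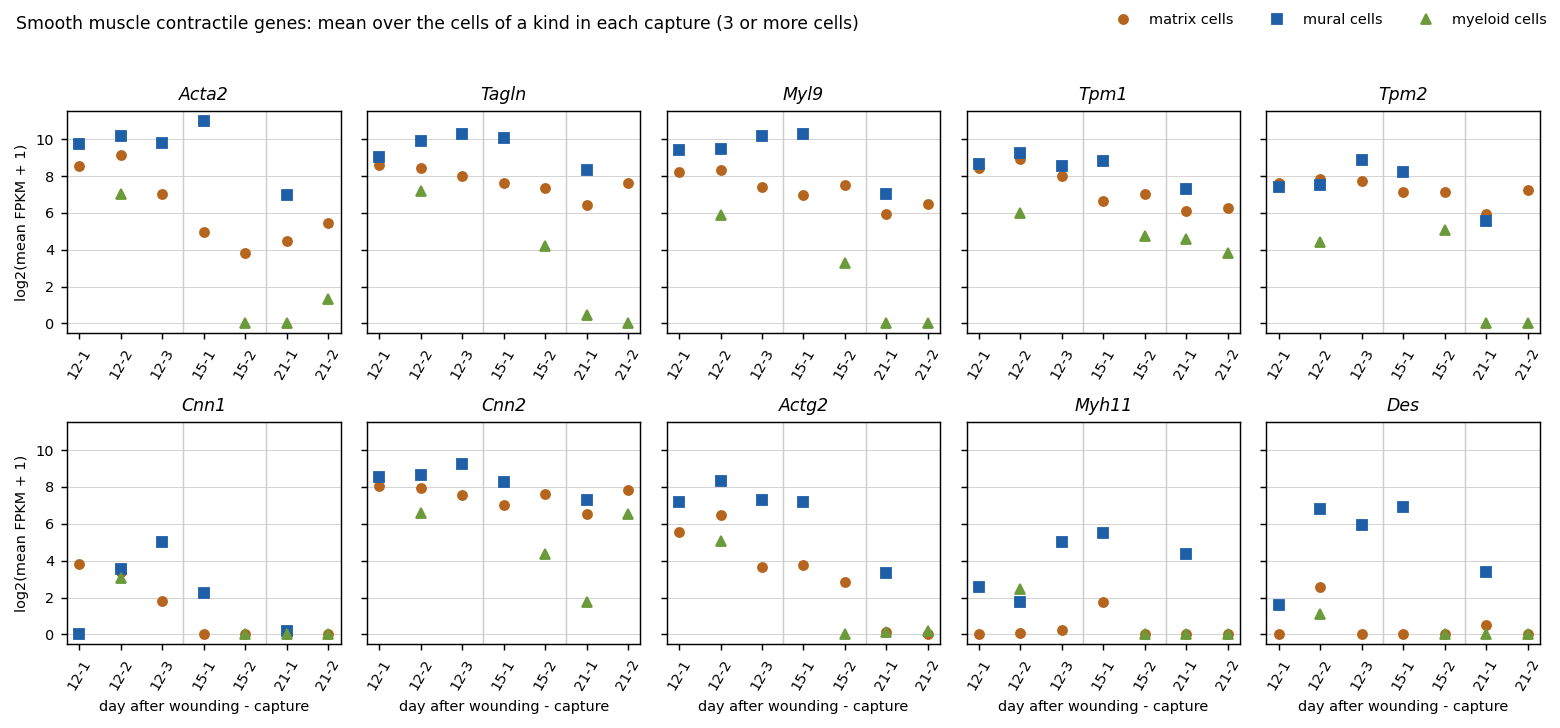
Mean level of each gene, as log2(mean FPKM + 1) on the vertical axis, in the matrix (circles), mural (squares) and myeloid (triangles) cells of each capture on the horizontal axis, labelled by day and capture, for captures with at least 3 cells of the kind. Acta2 in matrix cells was 131 to 573 FPKM in the PWD12 captures and 12.9 to 42.2 FPKM in the later ones, while Myh11 and Des were near 0 in matrix cells and above them in mural cells of all 5 captures.

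Ordered by level, the members fell into a broad and a sparse group in matrix cells, a division made after the values were seen. Over the 7 captures the mean of log2(FPKM + 1) was 7.72 ± 0.73 for Tagln (SD, n = 7), 7.50 ± 0.55 for Cnn2, 7.34 ± 1.11 for Tpm1, 7.27 ± 0.86 for Myl9, 7.23 ± 0.63 for Tpm2 and 6.21 ± 2.08 for Acta2. Each of these 6 and its neighbour in the order differed by less than the larger of their SDs, and Acta2 stood out for its spread over captures more than for its place. Actg2 followed, below Acta2 by more than either SD, at 3.20 ± 2.47, then Cnn1 at 1.29 ± 1.72, Des at 0.44 ± 0.97 and Myh11 at 0.30 ± 0.66.
In mural cells Acta2 was first, at 9.53 ± 1.51 (SD, n = 5), with Tagln at 9.51 ± 0.83 and Myl9 at 9.27 ± 1.31 next to it. Tpm1 was at 8.51 ± 0.72, Cnn2 at 8.41 ± 0.72 and Tpm2 at 7.51 ± 1.24. Actg2 at 6.67 ± 1.92, Des at 4.92 ± 2.34 and Myh11 at 3.85 ± 1.62 were low but present, and Cnn1 was last at 2.19 ± 2.16. Here each gene and the next in the order differed by less than the larger of their SDs.

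**Figure D2:**
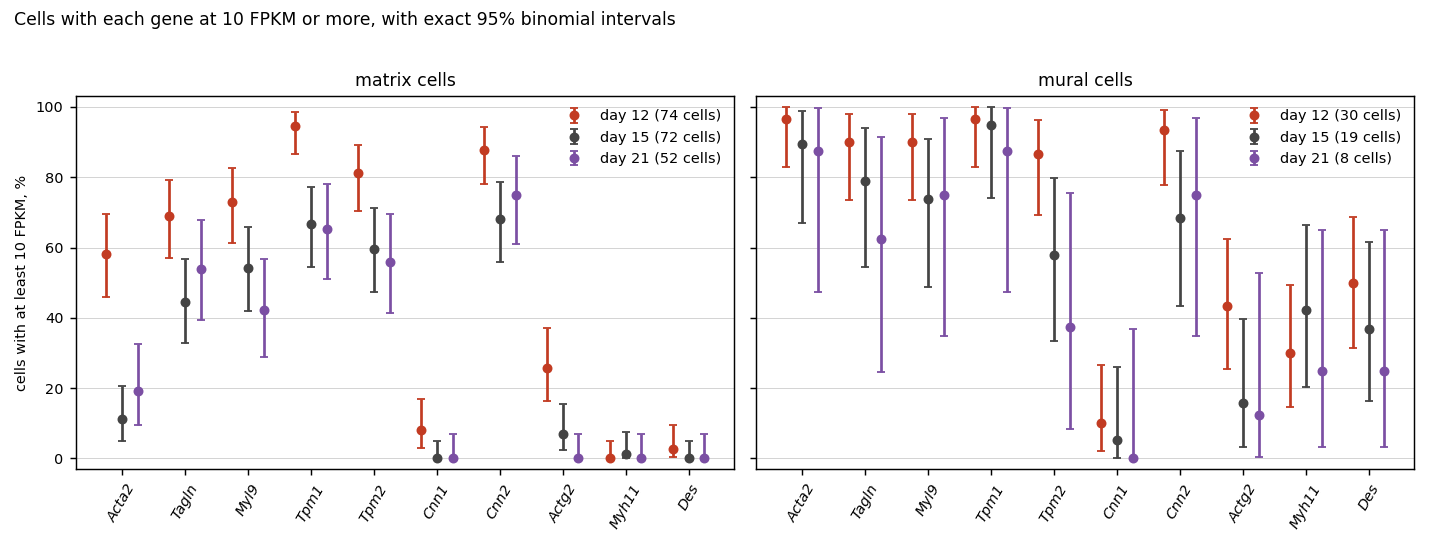
Percentage of kept matrix (left) and mural (right) cells with each gene at 10 FPKM or more on the vertical axis, for the genes on the horizontal axis, by day, with exact 95% binomial intervals as bars. The Acta2 share of matrix cells was 58.1% on PWD12, 11.1% on PWD15 and 19.2% on PWD21, and that of mural cells was 87.5% or more on each day.

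The next question was how the contractile genes differ between the kinds of tdTomato-high cells, and limma, a linear model fitted across all genes, compared kinds within captures. In mural cells Des, Myh11, Actg2, Myl9 and Tagln were higher than in matrix cells, and the 10 members had a median difference of 1.79 on the log2 scale, where that of all 13823 genes tested was -0.22. Thus 5 of 10 members rose, and none fell, at an adjusted p under 0.05, while 0.948% of all genes tested were called higher. Des differed by 4.30 on the log2 scale (standard error 0.84, adjusted p = 0.037), with differences of 1.60, 4.18 and 5.91 in the PWD12 captures, 6.93 in PWD15 capture 1 and 2.90 in PWD21 capture 1. Myh11 differed by 3.42 (standard error 0.69, adjusted p = 0.041), with 1.65 as the lowest and 4.79 as the highest capture.
For Des and Myh11 most of the matrix captures were at or near 0 FPKM, so these sizes depend on the pseudocount of 1 and are not fold changes. Myh11 passed the filter on low values only through its mural cells, where it is high. Its call, and its place in the count of members that rose, are therefore no separate support. The actin Actg2 differed by 2.75 (standard error 0.51, adjusted p = 0.027), the light chain Myl9 by 1.89 (standard error 0.37, adjusted p = 0.038) and Tagln by 1.69 (standard error 0.31, adjusted p = 0.024). All 5 were higher in mural cells in 5 of 5 captures.
For Acta2 the fitted difference was 2.69, with a standard error of 0.62, and it missed the threshold at an adjusted p of 0.062, while it passed with all cells and with the mean of log2 values. Its differences were 1.17, 0.98 and 2.76 in the PWD12 captures, 6.05 in PWD15 capture 1 and 2.498 in PWD21 capture 1, so that PWD15 capture 1, with 29.6 FPKM of Acta2 in its matrix cells, stood apart. Cnn2 differed by 0.99 (adjusted p = 0.13), Tpm1 by 0.89 (adjusted p = 0.26), Cnn1 by 0.38 (adjusted p = 0.89) and Tpm2 by 0.26 (adjusted p = 0.78). Relative to the median gene the difference was 2.91 for Acta2, 2.11 for Myl9 and 1.91 for Tagln, and rescaling the cells to a common total moved that median by -0.105 and turned no sign.
Mural cells lay above matrix cells in every capture for 8 of 10 members, all but Tpm2 and Cnn1, against 4.73% of all genes tested. The 8 include Myh11, which was tested through its mural cells alone. The calls rest on all captures together. No member passed without PWD12 capture 2, PWD12 capture 3 or PWD15 capture 1, or in the PWD12 captures alone, 2 passed without PWD12 capture 1 (Tagln and Des) and 4 without PWD21 capture 1, and without the capture as a block 2 passed (Myh11 and Des).

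**Figure D3:**
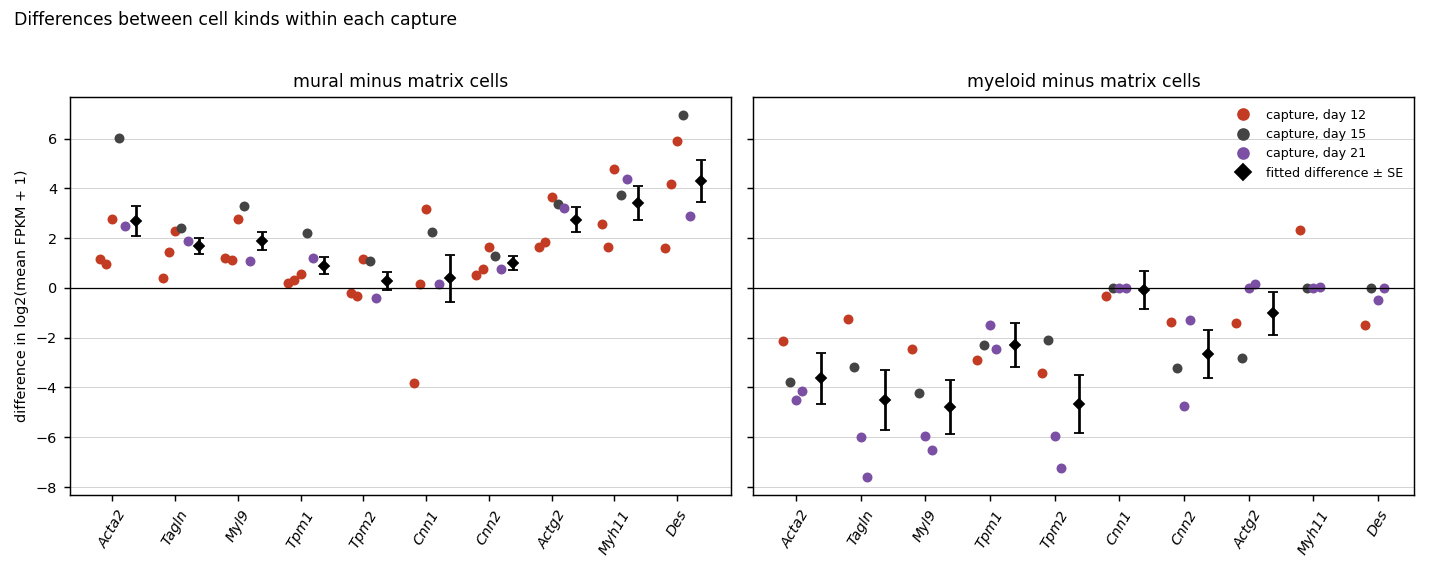
Differences of log2(mean FPKM + 1) between mural and matrix cells (left) and between myeloid and matrix cells (right) for the genes on the horizontal axis. Each circle is a capture coloured by day, and diamonds with bars are the fitted difference ± standard error; Des and Myh11 have no fit on the right. Mural cells were above matrix cells in 5 of 5 captures for 8 members, and myeloid cells were below them in 4 of 4 captures for 6 members.

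Myeloid cells carried little of the list. In the 4 captures with at least 3 myeloid cells the Tagln mean was 145 FPKM in PWD12 capture 2, 17.1 in PWD15 capture 2, and 0.380 and 0 in the PWD21 captures. The Acta2 mean in the same captures was 129, 0, 0 and 1.48 FPKM. All Tagln of PWD15 capture 2 was in 1 myeloid cell, at 68.3 FPKM, which also held Col1a1 at 6923 FPKM. Col1a1 reached 10805 FPKM in another myeloid cell of that capture, with Tagln at 0. In a myeloid cell of PWD21 capture 1, Col1a1 reached 6201 FPKM, with Tagln at 1.90. PWD12 capture 2 stood apart, and 1 of its 11 myeloid cells accounted for it. That cell held all 10 members at 10 FPKM or more, with Acta2 at 1384, Tagln at 1596, Myl9 at 641, Actg2 at 352, Cnn1 at 81.6, Myh11 at 48.9 and Des at 12.96 FPKM, beside Tyrobp at 2708, Lyz2 at 7509 and Col1a1 at 2047 FPKM and 9284 genes with a value above 0. It held 97.0% of the Acta2 of all PWD12 myeloid cells, whose mean without it was 3.25 FPKM. The study kept wells seen to hold single cells, and no doublet caller was run here. Before the limits on cells, 3 of 17 myeloid cells of this capture held Acta2, Tagln, Myl9, Tpm1 and Tpm2 at 100 FPKM or more each, and the limits removed 2 of these 3.
Of the 8 members with enough signal, 3 were called lower in myeloid than in matrix cells, where 4.90% of the 13059 genes tested were. Myl9 differed by -4.79 on the log2 scale (standard error 1.09, adjusted p = 0.033), Tpm2 by -4.67 (standard error 1.16, adjusted p = 0.040) and Tagln by -4.50 (standard error 1.201, adjusted p = 0.048). Acta2 was at -3.64 (adjusted p = 0.056), Cnn2 at -2.65 (adjusted p = 0.11) and Tpm1 at -2.29 (adjusted p = 0.13), while Actg2 at -1.02 and Cnn1 at -0.08 were near the median of all genes or above it.
The median of the 8 members was -3.14 against -0.999 for all genes, so values are best read relative to the latter, as -3.79 for Myl9, -3.67 for Tpm2 and -3.50 for Tagln. In every capture the myeloid mean was below the matrix mean for 6 members (Acta2, Tagln, Myl9, Tpm1, Tpm2 and Cnn2), as for 26.4% of all genes tested. Acta2 passed as well with a pseudocount of 0.1, after rescaling to a common total, without the variance trend and, chosen after seeing the data, without the lone cell (-4.85, adjusted p = 0.022). Tagln was lost with a pseudocount of 0.1, without the variance trend and without the capture as a block. Without any 1 of the 4 captures, or with all cells, no member passed.

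To ask how the contractile genes of matrix cells moved between the days, the capture means of matrix cells were compared, with 3, 2 and 2 captures. No member passed an adjusted p of 0.05 between PWD15 and PWD12, where the share of all genes called was 0.0%, or between PWD21 and PWD12, where it was 0.00738%, or between PWD21 and PWD15, at 0.0%. Over all 13552 genes, 0, 1 and 0 genes were called and 791, 968 and 745 had an unadjusted p under 0.05. Among the 8 members tested, which leave out Myh11 and Des, 3, 7 and 1 had an unadjusted p under 0.05.
For PWD15 minus PWD12 Acta2 differed by -3.90 on the log2 scale (standard error 0.67, adjusted p = 0.22) and Tpm1 by -1.62 (standard error 0.40, adjusted p = 0.58). For PWD21 minus PWD12 Actg2 differed by -5.16 (standard error 0.92, adjusted p = 0.20), Acta2 by -3.30 (standard error 0.67, adjusted p = 0.23), Tpm1 by -2.25 (standard error 0.40, adjusted p = 0.20) and Myl9 by -1.75 (standard error 0.43, adjusted p = 0.45). Tagln, at -0.87 and -1.34, Tpm2, at -0.59 and -1.12, and Cnn2, at -0.54 and -0.68, had smaller differences. The PWD21 values of these genes turn on single captures, and without PWD21 capture 1 they were -0.76, -0.47 and -0.04, against -1.92, -1.78 and -1.32 without PWD21 capture 2. The direction was the same for all 8 members in both comparisons, which share the PWD12 captures. Their median was -1.24 on PWD15 and -2.003 on PWD21, where the medians of all genes were -0.10 and -0.19.
All 3 PWD12 captures were above all 4 later captures for 5 of the 8 members tested (Acta2, Tagln, Tpm1, Tpm2 and Cnn1), against 5.11% of all genes. Cnn1 was at 0 in all later captures and passed the filter on low values through PWD12 alone. Its place in the counts of members, and its direction in the comparisons with PWD12, are therefore no separate support. With the mean of the log2 values of cells in place of the log2 of their mean, which gives more weight to how many cells hold a gene, Acta2 passed between PWD15 and PWD12 (adjusted p = 0.00097), and Acta2, Myl9 and Tpm1 passed between PWD21 and PWD12. Under that setting 0.207% and 0.517% of all genes passed, and genes at an unadjusted p under 0.05 were mostly lower, with 1471 lower and 163 higher on PWD15. Over the other alternatives, captures left out included, the adjusted p of Acta2 between PWD15 and PWD12 reached up to 0.93.
In mural cells the later captures, 1 of PWD15 and 1 of PWD21, were compared with the 3 of PWD12. No member and 0.0% of all 12704 genes passed, 525 genes had an unadjusted p under 0.05, and among the members it was Actg2 alone (-2.36, adjusted p = 0.91), at -4.28 without the PWD15 capture and -0.44 without the PWD21 capture. The PWD15 capture had the highest Acta2 of all 5 and the PWD21 capture the lowest, so the later days do not form a group. The difference between mural and matrix cells was then itself compared between days, with 0.0% of 13823 genes called and 688 at an unadjusted p under 0.05. No member passed. For later days minus PWD12, the mural minus matrix difference was 2.63 for Acta2 (standard error 0.99, adjusted p = 0.91) and 1.35 for Tpm1 (standard error 0.57, adjusted p = 0.91), the 2 members with an unadjusted p under 0.05. The Acta2 value was 0.86 without PWD15 capture 1 and 4.41 without PWD21 capture 1, and the Tpm1 value 0.85 and 1.85.

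Counting members within single cells showed how much of the apparatus 1 cell carries. Of the 6 broad members (Acta2, Tagln, Myl9, Tpm1, Tpm2 and Cnn2) the median matrix cell held 5 at 10 FPKM or more on PWD12, 3 on PWD15 and 3 on PWD21. All 6 were held by 29 of 74 matrix cells on PWD12 (39.2%), 3 of 72 on PWD15 (4.17%) and 6 of 52 on PWD21 (11.5%). By capture these were 10 of 31, 13 of 26 and 6 of 17 cells on PWD12, 3 of 50 and 0 of 22 on PWD15, and 2 of 18 and 4 of 34 on PWD21, so the captures of PWD12 were each above those of the later days.
Mural cells held the full set more often on PWD12, in 22 of 30 cells (73.3%), and in 7 of 19 (36.8%) on PWD15 and 1 of 8 (12.5%) on PWD21. Tpm2 was the broad member most often missing from later mural cells, and reached 10 FPKM in 57.9% of PWD15 and 37.5% of PWD21 mural cells. Of the myeloid cells 12 of 26 held none of the 6 genes at this limit and 1 of 26 held all.

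**Figure D4:**
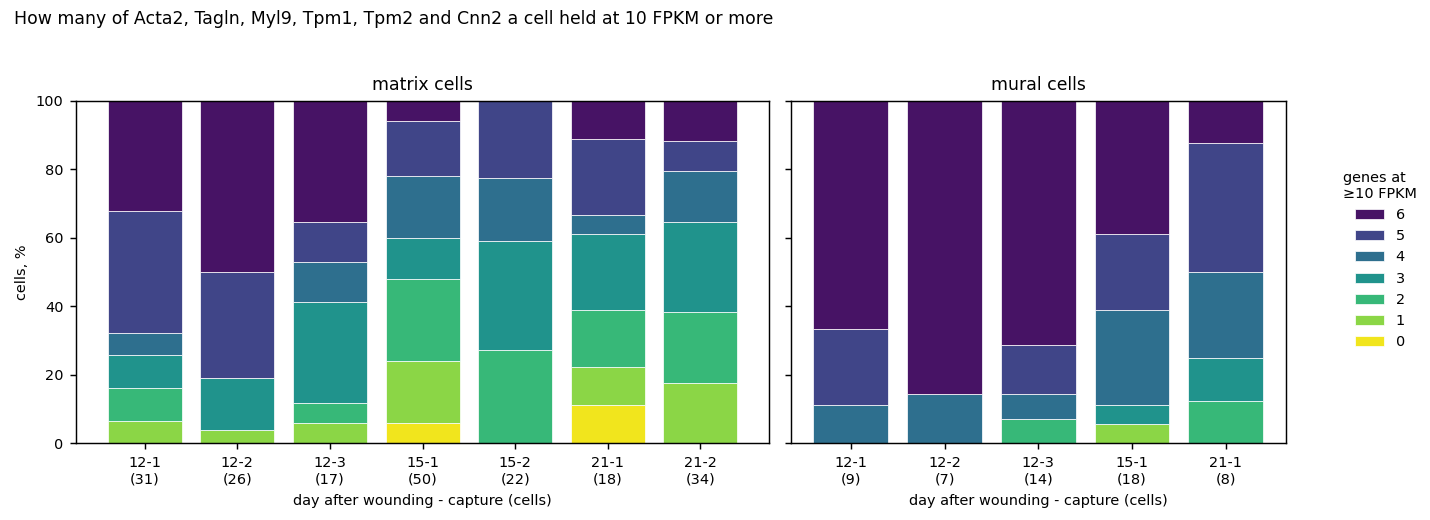
Share of cells, in percent on the vertical axis, by how many of Acta2, Tagln, Myl9, Tpm1, Tpm2 and Cnn2 they held at 10 FPKM or more, for matrix (left) and mural (right) cells of each capture on the horizontal axis, with cell numbers in brackets. The darkest band is cells with all 6, which was 32.3% to 50% of matrix cells in the PWD12 captures and 0% to 11.8% in the later ones.

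Within PWD12 matrix cells, those with Acta2 held more of the other members. Tagln reached 10 FPKM in 36 of 43 cells with Acta2 (83.7%) and in 15 of 31 without (48.4%), and Tpm2 in 40 of 43 (93.02%) and 20 of 31 (64.5%). All 6 matrix cells with Cnn1 at 10 FPKM or more were among the 43 with Acta2, and 0 were among the 31 without. On PWD15 Tagln was in 5 of 8 cells with Acta2 and 27 of 64 without (62.5% and 42.2%), and Tpm2 in 6 of 8 and 37 of 64 (75% and 57.8%). On PWD21 there were 10 cells with Acta2, with Tpm2 in 10 of 10 against 19 of 42 (45.2%) and Tagln in 8 of 10 against 20 of 42 (47.6%). For Tpm1 on PWD12 the shares were 95.3% and 93.5%. It reached 10 FPKM in 70 of 74 of these cells, so this limit cannot show pairing for it. In rank correlations over cells, Tpm1 with Acta2 was at 0.35, 0.73 and 0.21 in the PWD12 captures 1, 2 and 3.
Rank correlations over the cells of 1 capture describe the same pairing without a limit. The cells of a capture share a chip and differ in depth, and these values are descriptions over 17 to 50 matrix cells a capture. In matrix cells the 15 pairs among the 6 broad members had a median Spearman rho of 0.32 (0.24 to 0.54), as means over the 7 captures, where the median over 9420 genes was 0.03 with Acta2 and 0.02 with Tagln. Tagln and Myl9 were the closest pair, at 0.54, with 0.26 as the lowest and 0.66 as the highest capture. Acta2 and Tagln were at 0.34, with -0.18 in PWD15 capture 2, where few cells held Acta2. The 24 pairs of a broad with a sparse member had a median of 0.18, over only 2 to 4 captures for Cnn1, Myh11 and Des. The 6 pairs with Cnn1 were at 0.30 to 0.38 over the 3 PWD12 captures alone. That range cannot be set against that of the broad pairs, whose means take in the later captures.
In mural cells Tagln and Myl9 were again close, at 0.54, and Acta2 was at 0.52 with Tagln and 0.48 with Tpm1. The 15 broad pairs had a median of 0.27, and Tpm2 ranged from -0.18 with Cnn2 and 0.04 with Acta2 to 0.27 with Tpm1, while Cnn2 was at 0.10 with Tagln and 0.12 with Myl9. Each mural value is a mean over 5 captures of 7 to 18 cells.

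**Figure D5:**
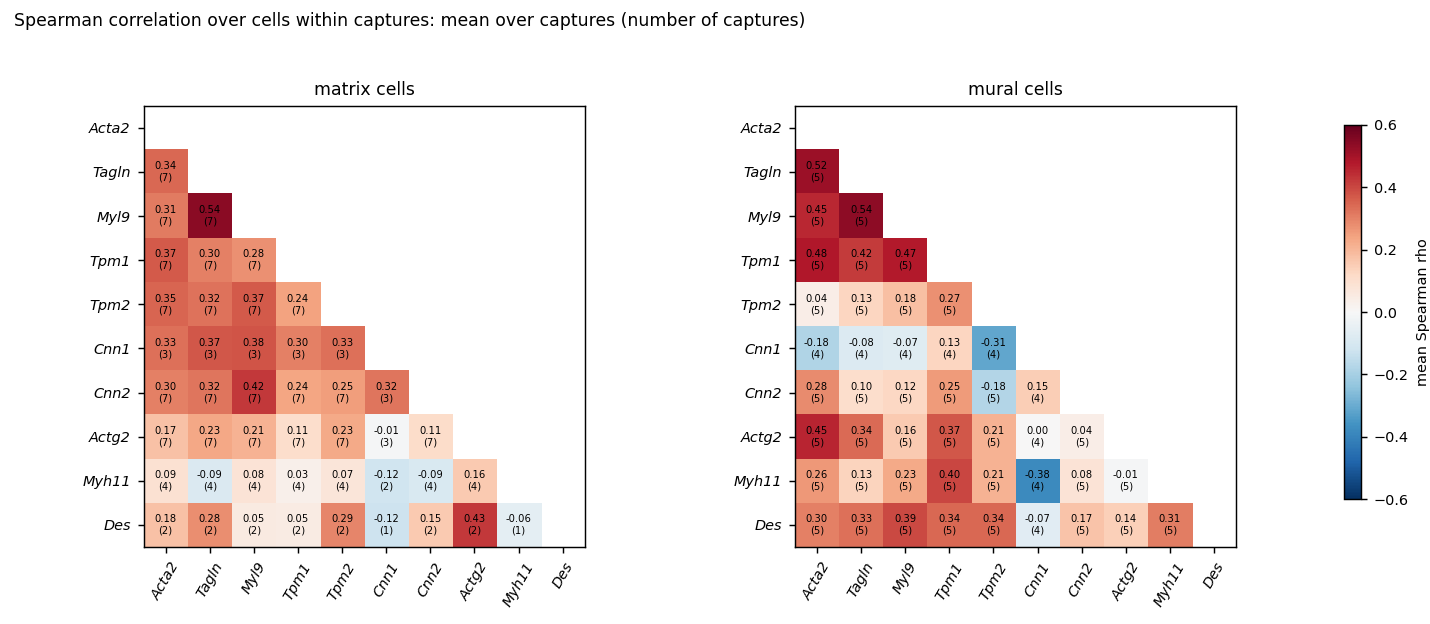
Mean Spearman rho between the genes on both axes over the cells of a capture, for matrix (left) and mural (right) cells, from blue (negative) to red (positive), with the number of captures in brackets. Tagln and Myl9 were the closest pair of broad members in both kinds, at 0.54, and Tpm2 with Cnn2 was at 0.25 in matrix and -0.18 in mural cells.

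Ranked over 9419 other genes by mean rho in matrix cells, Acta2 had Tpm1 at rank 2, Tpm2 at 4, Tagln at 6, Myl9 at 11 and Cnn2 at 17. The 5 genes outside the list with the highest values were Gpr176 at 0.37, Zbtb8a at 0.36, BC003965 at 0.35, Esyt2 at 0.33 and Sox11 at 0.32, and all of these but Esyt2 were above 0 in just 23.2% to 29.8% of matrix cells. For Gpr176 the rho was 0.13 in the lowest capture and 1.0 in the highest, a value that weighs on its mean. Tagln had Myl9 at rank 1 and Acta2, Tpm2, Cnn2 and Tpm1 at 7, 10, 11 and 15. The 5 closest genes outside the list were the cytoskeletal genes Actb (0.42), Tmsb10 (0.40) and Myl12a (0.38), with Lrrc15 (0.38) and Pfdn1 (0.35), and all were above 0 in at least 77.8% of matrix cells.

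Other genes of contraction split in the same comparison of mural with matrix cells. Of 26 such genes 24 were tested, 4 rose and 1 fell, with a median of 0.33 against -0.22 for all genes, of which 0.948% rose and 0.76% fell. Synpo2, an actin-bundling protein of muscle, rose by 5.39 (adjusted p = 0.0022), Kcnmb1, a subunit of the potassium channel that relaxes smooth muscle, by 3.87 (adjusted p = 0.049), Cryab, a small heat shock protein, by 1.90 (adjusted p = 0.018) and Ppp1r12a, the targeting subunit of myosin phosphatase, by 1.65 (adjusted p = 0.041). Csrp2, a LIM protein of vascular smooth muscle, fell by 1.96 (adjusted p = 0.027). The cytoplasmic actin Actb, at -0.05 (adjusted p = 0.90), was present in every cell of both kinds.
None of 10 regulators passed, with a median of 0.09. Myocd, the myocardin cofactor of smooth muscle, was above 0 in 6 of 57 mural and 2 of 198 matrix cells, and Srf in 14 of 57 and 67 of 198. Against myeloid cells, 22 contractile genes were tested, of which Csrp2, Cryab, Mylk and Cald1 were lower in myeloid cells (-5.51, -4.97, -3.63 and -3.43) and Actb was higher (0.64), where the median of all genes was -0.999 and 4.90% were called lower and 1.69% higher. None of 9 regulators passed.
Between the days none of 22 contractile genes and 9 regulators passed in matrix cells, and the contractile genes had medians of -0.26 on PWD15 and -0.22 on PWD21 relative to PWD12. The medians of all genes were -0.10 and -0.19, and those of the members -1.24 and -2.003.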

How the data were processed

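Single tdTomato-high wound cells were captured in microfluidic chips and cDNA of whole transcripts was read from both ends. The authors aligned the reads and computed FPKM with RSEM and Bowtie 1.0.0 on mm10 with GENCODE mouse release 13, and the deposited tables hold these FPKM values for 50600 gene identifiers in 367 cells. Of the identifiers, 50376 were named through GENCODE mouse release 21 and 224 were not. The tables hold no counts, so tests on counts were not run, although the plan named them first.
The depth of each cell was taken from the smallest steps of FPKM within 9426 genes, with an assumed fragment length of 300 bases, and the estimate was tested on simulated data. Following the limits of the study, cells with at least 159000 estimated fragments, no more than 11000 genes above 0 and a mitochondrial share of no more than 15% were kept. The study set the first of these limits on aligned reads, so the cells kept need not be the same as its own. The authors left out wells seen to hold several cells, and no doublet caller was run. A limit of 10 FPKM was used for cells with a gene beside detection above 0, and where no cell held a gene the upper limit of the share was 3 over the number of cells.
Captures, named by the Sample number in the labels, were the replicates. The log2(mean FPKM + 1) over the cells of a kind was computed per capture with at least 3 such cells, and limma was run on genes that averaged 1 FPKM or more, with a variance trend. Kinds were compared with the capture as a block. Tests were two-sided, p was adjusted over all genes tested by Benjamini and Hochberg, and the threshold was 0.05. Intervals of shares are exact Clopper-Pearson intervals.
Alternatives were all cells, pseudocounts of 0.1 and 10, no filter on low values, rescaling each cell to 1000000, the mean of log2 values, no variance trend, limits of the kinds at 0.5 and 2 times, the other choice of block and each capture left out. The comparisons of PWD12 captures alone and without the lone myeloid cell were added after seeing the data. All 10 genes of the list are named, as are genes that passed among 26 other contractile genes and 10 regulators and the 5 genes most like Acta2 and Tagln among those above 0 in at least 20% of matrix cells, while Srf, Myocd and Actb were picked out with their values known. The members and lists were chosen with earlier results of these data known. The software was limma 3.58.1 under R 4.3.3, and pandas 2.3.3, scipy 1.17.1, numpy 2.4.6 and matplotlib 3.10.9 under Python 3.11.15. The droplet-based cells of the study were not analysed here.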

Additional observations from a re-analysis of the deposited data

Results flagged for a closer look

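For 20 sets of differences between kinds within captures, a capture far from the others was looked for, which chance finds in about 1 of 20. In 2 of them PWD12 capture 2 stood apart, both between myeloid and matrix cells over 4 captures. The Cnn1 difference was -0.31 on the log2 scale there and 0 in the other captures, where both kinds were listed at 0. The Myh11 difference was 2.35 there and 0 to 0.03 in the others. On the log2 scale, Cnn1 was at 3.07 in the myeloid and 3.38 in the matrix cells of this capture, and Myh11 at 2.45 and 0.0997. This capture holds the myeloid cell with all 10 members at 10 FPKM or more, which held 100% of both genes in PWD12 myeloid cells. That cell raised both differences, so it made the Cnn1 difference less negative.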

How the results depend on the processing

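Between mural and matrix cells 236 genes and 5 members passed. These numbers were 19 and 0 without the filter on low values, 90 and 0 without the variance trend and 73 and 0 in the PWD12 captures alone, while the mean of log2 values gave 657 genes (289 higher and 368 lower, against 131 and 105). A pseudocount of 10 left 1 member, and the fit without the replicate block 2. With each capture left out the genes were 102 to 228 and the members 0 to 4. Between myeloid and matrix cells 861 genes and 3 members passed. All cells gave 485 and 0, a pseudocount of 10 gave 183 and 0, no filter gave 31 and 0, rescaling to a common total gave 1365 genes, and captures left out in turn gave 108 to 340 genes and 0 members. Between days, PWD15 against PWD12 went from 0 genes and 0 members to 28 and 1 with the mean of log2 values, and PWD21 against PWD12 from 1 gene and 0 members to 70 and 3. The 1 gene was lost (0 genes) with a pseudocount of 0.1, without the filter, after rescaling, with the replicate block and with each capture left out, and limits at 2 times gave 3. PWD21 against PWD15 gave 1 gene with a pseudocount of 10. Cnn1 turned its sign between mural and matrix cells in the PWD12 captures alone (-0.16) and without PWD12 capture 3 or PWD15 capture 1, with -0.31 to 1.44 over the captures left out, and between myeloid and matrix cells with the mean of log2 values (0.0088). No other member turned its sign between kinds, or in matrix cells between PWD12 and either later day. In the other comparisons of days, only members with an unadjusted p under 0.05 were followed. Others can turn there, as mural Acta2 was at 9.90 on the log2 scale on PWD12, 10.98 on PWD15 and 6.99 on PWD21. The cause of these changes was not tested.
Captures of the same number were not taken to be paired across days, since no pairing is stated. Their deviations from the day means correlated at -0.007 to 0.025 over 13552 genes, and those of captures of unlike number at -0.030 to 0.030. On days with 2 captures the deviations mirror each other, so these values cannot decide whether captures were paired. With the number as a replicate block, no member passed between days, as without it.
The depth of the cells is an estimate, the values are not counts, and 2 to 3 captures a day with at most 5 captures of mural cells limit what the tests can call. Cells at 0 FPKM were not distinguished from cells whose RNA was missed.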

Other observations

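The 12 kept cells that met no rule for a kind also held contractile RNA. Acta2 reached 10 FPKM in 4 of them, with 2033 FPKM as the highest value, Tagln in 5, with 2406 as the highest, Myl9 and Tpm2 in 7 each, Tpm1 in 6, Cnn2 and Actg2 in 4 each, Myh11 in 2, and Cnn1 and Des in 1 each. Their median Col1a1 was 1763 FPKM, and 5 of them had Rgs5 between 100 and 500 FPKM, the gap between the rules for matrix and mural cells.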
